A study of Mus musculus with 6 samples.

Results

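Glycosaminoglycans are long sulfated sugar chains carried by proteoglycans at the cell surface, in secretory granules and in the matrix. Expression of 44 genes for the enzymes that build and sulfate them was compared between knockin (KI) and wild-type (WT) bone marrow macrophages, out of 18193 genes measured. Members were taken by symbol, from the families Chst, Hs3st, Hs6st, Ndst, Ext and Extl, B3gat, Xylt, Csgalnact and Chsy, together with Hs2st1, Chpf, Ust, Dse and Glce. Each gene was read from its probe set (a group of oligonucleotides for 1 transcript) with the highest mean log2 intensity over the 6 arrays. The KI cells came from mice labelled knockin mutant and the WT cells from wild-type mice, both of strain C57BL/6, with 3 arrays each. The series title names the IVVY motif of RANK, the receptor for RANKL, and the labels give neither the altered residues nor the age of the mice. Cells of both genotypes were cultured for 24 hours with 44 ng/ml M-CSF, which keeps macrophages alive, and 100 ng/ml RANKL, which turns them into osteoclasts. The labels leave unsaid whether the 3 samples of a genotype came from separate animals or cultures. The p-values therefore weigh a difference against the spread between these samples, and may not extend to other animals.

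Chain synthesis starts with a short linker that xylosyltransferases begin on a serine of the core protein. EXT enzymes then extend heparan sulfate, or chondroitin synthases extend chondroitin, and sulfotransferases and epimerases modify the growing chain at set positions. Macrophages carry both kinds of chain, which bind growth factors, chemokines and lipoproteins, and in bone they can bind osteoprotegerin and RANKL.

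The largest differences lay among the chondroitin sulfotransferases: Chst7 and Chst11 fell 4.78- and 4.27-fold, while Chst12 and Chst14 rose. In the other steps Xylt2, Extl3 and Dse rose, and Ext1, Glce and Chpf fell. Thus 5 of 44 members were higher and 5 lower in KI cells at an adjusted p under 0.05 by limma, and 34 did not pass. Across all genes 26.8% passed, 11.9% higher and 14.9% lower, so the members' share of 22.7% lay close to the background. The median log2 change (KI over WT) was 0.02 over the members and -0.0013 over all genes. By this measure the enzymes did not move as one group, and the following values are those of single genes.

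**Figure D1:**
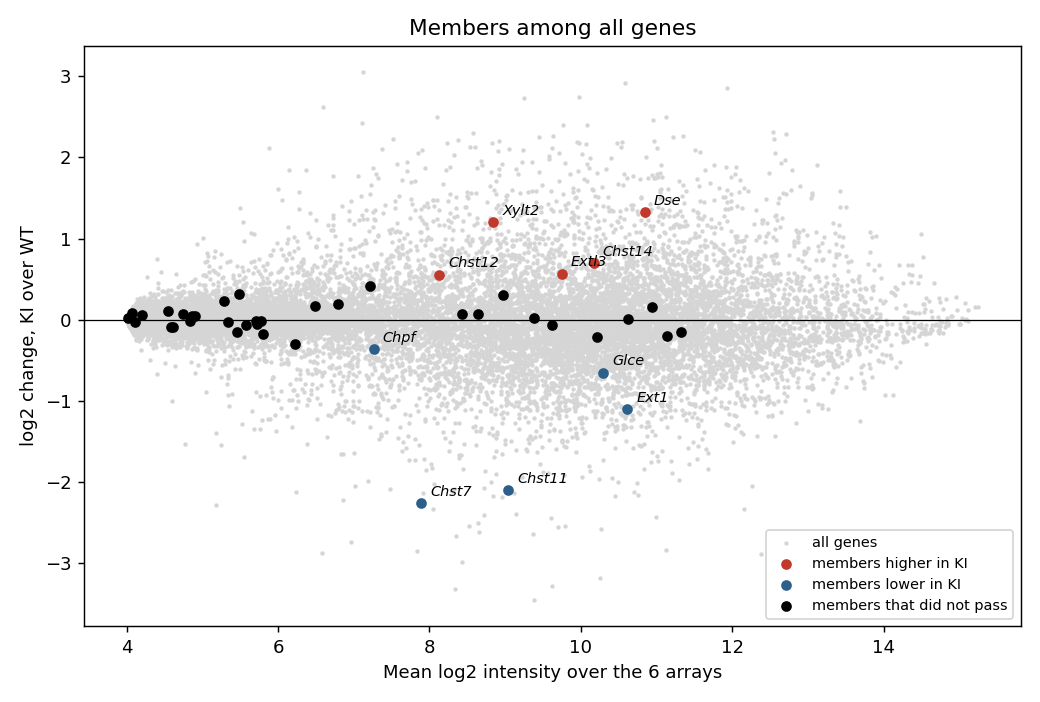
Log2 change (KI over WT) against mean log2 intensity over the 6 arrays for all 18193 genes (grey) and the 44 members (larger points). Chst7 (-2.26) and Chst11 (-2.10) lie near the lower edge of all genes, the other 8 members past the threshold lie between -1.10 and 1.32, and members that did not pass lie between -0.30 and 0.42.

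Of the 44 members, 23 had a mean above the median probe set (an intensity of 84.7), and each of the 10 that passed was among them. Among the other 21 the intensities lay between 14.2 and 91.0 on all arrays, a range in which a difference is hard to measure. The KI and WT arrays did not overlap for 20 of 44 members, against 45.5% of all genes. A difference of at least 2-fold together with a passed test was found for 5 members (Chst7, Chst11, Ext1, Xylt2 and Dse), against 5.27% of all genes. Ndst1, Xylt1 and Hs3st5 are not analysed here.

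As facts of the whole set of arrays, array medians lay between 83.0 and 84.8 and no pair of arrays was identical. Of 7 macrophage markers 6 rose in KI cells, with summed intensities of 134360 to 140924 on KI arrays and 88202 to 108473 on WT arrays. Of 8 osteoclast markers 6 fell, with sums of 29271 to 32597 on KI arrays and 63921 to 73216 on WT arrays, and Calcr lay near the floor. Stromal cell and osteoblast markers, from cells that make much proteoglycan, summed to 2705 to 10290 on KI arrays and 2693 to 8770 on WT arrays, with 0 of 8 past limma's test. Neutrophil markers summed to 22195 to 43747 on KI arrays and 15888 to 19911 on WT arrays, with 1 of 8 higher. Of 10 mast cell and basophil markers, 1 was lower (Kit, log2 change -0.50, adjusted p = 0.0049), and 9 lay at or below the median probe set, with sums of 438 to 490 on KI arrays and 455 to 501 on WT arrays. Of 4 endothelial markers, 1 was lower (Kdr, log2 change -0.57, adjusted p = 0.023), with sums of 453 to 485 on KI arrays and 569 to 735 on WT arrays. B cell markers summed to 285 to 342 on KI arrays and 244 to 391 on WT arrays, and T and NK cell markers to 237 to 258 on KI arrays and 246 to 257 on WT arrays. The part of these cells in the results was not tested. In RNA from whole cultures, fewer cells of a type and less RNA per cell cannot be told apart. Tnfrsf11a, which encodes RANK itself, averaged 961 ± 119 in KI and 847 ± 258 in WT cells (SD, n = 3 each, adjusted p = 0.56 by limma), which says nothing of a change in its residues.

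The stretches before the transcription starts of Chst7, Chst11, Glce and Chst14 are shown because these genes carry the 2 largest falls, the fall in the heparan epimerase and the rise with the smallest p among the members. Each is the 250 bases before the annotated start, 5′ to 3′ on the gene's strand, from RefSeq on build GRCm38.p6: chrX:20059320-20059569 (+) for Chst7, chr10:82985247-82985496 (+) for Chst11, chr9:62122610-62122859 (-) for Glce and chr2:118926247-118926496 (+) for Chst14. Capitals mark a match to 1 of 3 motifs searched on both strands: TGANTCA for AP-1, GGGA and CC with any 4 bases between them for NF-kB, and CACGTG for the MiT factors. None of the letters matched overlapped another motif in these windows.
Chst7: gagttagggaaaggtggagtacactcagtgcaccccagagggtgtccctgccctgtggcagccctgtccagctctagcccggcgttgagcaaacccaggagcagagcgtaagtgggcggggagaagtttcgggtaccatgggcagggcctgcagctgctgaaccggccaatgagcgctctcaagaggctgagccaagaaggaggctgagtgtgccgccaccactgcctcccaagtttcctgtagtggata
Chst11: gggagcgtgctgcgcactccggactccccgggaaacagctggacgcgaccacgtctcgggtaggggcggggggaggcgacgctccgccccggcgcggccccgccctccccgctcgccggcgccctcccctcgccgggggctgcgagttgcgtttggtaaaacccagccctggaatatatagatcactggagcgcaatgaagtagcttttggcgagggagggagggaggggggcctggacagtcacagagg
Glce: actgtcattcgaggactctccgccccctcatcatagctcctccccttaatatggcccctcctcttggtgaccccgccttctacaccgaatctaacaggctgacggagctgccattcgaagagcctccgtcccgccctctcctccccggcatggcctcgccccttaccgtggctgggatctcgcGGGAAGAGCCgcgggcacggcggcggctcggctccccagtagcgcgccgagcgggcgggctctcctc
Chst14: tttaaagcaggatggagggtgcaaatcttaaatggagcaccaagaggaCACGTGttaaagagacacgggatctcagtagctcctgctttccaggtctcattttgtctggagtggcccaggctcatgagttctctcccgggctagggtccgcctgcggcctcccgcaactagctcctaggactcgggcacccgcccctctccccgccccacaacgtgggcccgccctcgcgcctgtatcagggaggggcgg

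Both strongly lowered genes lacked a match to all 3 motifs in this window. The window of Glce held the NF-kB letters from 67 bases before the start, and that of Chst14 held CACGTG from 202 bases before it. In all 32851 windows of this length the AP-1 letters were found in 6.75%, the NF-kB letters in 17.6% and the MiT letters in 6.02%. Of the 8 windows of members past the threshold, 0 held the AP-1 letters, 2 the NF-kB letters (Chpf and Glce) and 1 the MiT letters. Ext1 and Extl3 also passed but had no window to search. Among all 41 member windows, 2 held the AP-1 letters, 13 the NF-kB letters and 5 the MiT letters. The 4 printed windows are rich in G and C, at 61.2% for Chst7, 70.0% for Chst11, 67.2% for Glce and 61.2% for Chst14, against a median of 52.4% over all windows. Over the 41 windows of 36 members the median was 64.4%. These matches describe letters and show no binding.

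The linker is shared by heparan and chondroitin chains. Xylt2, a xylosyltransferase that begins it, had intensities of 707, 687 and 699 on the KI arrays, against 247, 334 and 335 on the WT arrays. KI arrays were closely alike and all lay more than 2-fold above each WT array. Its log2 change was 1.21 (SE 0.13, adjusted p = 0.0045), a 2.31-fold difference. Its only probe set has an identifier that marks possible matches to several transcripts. B3gat3, which completes the linker with glucuronic acid, had a mean of 771 ± 36.7 in KI and 809 ± 29.8 in WT cells (SD, n = 3 each) and did not pass (adjusted p = 0.47).

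Heparan chains are begun by EXTL3 and extended by a complex of EXT1 and EXT2. Ext1 had intensities of 1007, 1117 and 1097 on the KI arrays, against 2891, 1891 and 2214 on the WT arrays. All KI arrays lay well below the lowest WT array, and WT 1 was the highest. Its log2 change was -1.10 (SE 0.16, adjusted p = 0.0085). Its partner Ext2 had a mean of 1584 ± 27.9 in KI and 1571 ± 55.4 in WT cells (SD, n = 3 each), a log2 change of 0.01 (SE 0.05, adjusted p = 0.89). The KI and WT arrays overlapped for Ext2. A second, dim probe set of Ext1 differed by -0.03 (adjusted p = 0.93 over all probe sets).

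Extl3 had intensities of 925, 1133 and 1093 on the KI arrays, against 816, 691 and 622 on the WT arrays. The groups did not overlap, with KI 1 nearest to WT 1. The log2 change was 0.57 (SE 0.13, adjusted p = 0.028), but it no longer passed when WT 2 (adjusted p = 0.081), WT 3 (0.069), KI 2 (0.083) or KI 3 (0.097) was left out. Extl2, which acts on the linker, differed by 0.03 (adjusted p = 0.86), and Extl1 by -0.30 (adjusted p = 0.11).

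Heparan modification begins with N-deacetylation and N-sulfation by the NDST enzymes, after which GLCE epimerises glucuronic acid and HS2ST1, HS6ST and HS3ST enzymes add sulfate. Of 14 such genes measured, 1 fell and 13 did not pass, and 9 of the 13 had means at or below the median probe set. The share past the threshold was 7.14%, against 26.8% of all genes. At an unadjusted p under 0.05, 2 were higher and 2 lower. Glce had intensities of 1013, 1055 and 951 on the KI arrays, against 1835, 1452 and 1473 on the WT arrays, with no overlap. Its log2 change was -0.65 (SE 0.11, adjusted p = 0.012). The call ended without KI 3 (adjusted p = 0.053) and with the mean over its probe sets (-0.26, adjusted p = 0.052), of which 2 lay near background.

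Hs2st1, which adds sulfate to iduronic acid, gave unlike values from 4 probe sets. The brightest had a mean of 2115 ± 72.3 in KI and 2430 ± 267 in WT cells (SD, n = 3 each), a log2 change of -0.20 (adjusted p = 0.16 over genes). Another one had 523, 390 and 424 on the KI arrays, against 295, 300 and 295 on the WT arrays. That probe set alone rose, by 0.58 on the log2 scale (adjusted p = 0.030 over all probe sets), while the remaining ones differed by -0.18 and -0.34 without passing (adjusted p = 0.16 and 0.30). Of all 45037 probe sets 18.7% passed. Among the members it was the 1 of 32 probe sets not used as the gene's value that passed, and their positions on the transcript were not examined.

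Ndst2, which deacetylates and sulfates glucosamine, had a mean of 2079 ± 200 in KI and 1866 ± 143 in WT cells (SD, n = 3 each), a log2 change of 0.16 (adjusted p = 0.29). Hs6st1 differed by 0.07 (adjusted p = 0.50) and Hs3st2 by 0.07 (adjusted p = 0.72). The probe set used for Hs3st2 has an identifier that marks possible matches to several transcripts, and its other probe sets lay near background. Ndst3, Ndst4, Hs6st2, Hs6st3, Hs3st1, Hs3st3a1, Hs3st3b1, Hs3st4 and Hs3st6 had means at or below the median probe set, with log2 changes between -0.17 for Hs3st6 and 0.32 for Ndst4 (adjusted p = 0.065), and did not pass.

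Chondroitin chains are begun by CSGALNACT1 and CSGALNACT2, which add the first galactosamine, and extended by CHSY1, CHSY3 and CHPF. Of these 5 genes 20% passed, against 26.8% of all genes: Chpf fell and the other 4 did not pass. Its intensities were 139, 124 and 144 on the KI arrays, against 175, 164 and 183 on the WT arrays, a small difference without overlap. The log2 change was -0.36 (SE 0.09, adjusted p = 0.033), and the call ended when any 1 of the 6 arrays was left out (adjusted p between 0.060 and 0.095). As for Xylt2, the only probe set of Chpf has an identifier that marks possible matches to several transcripts. Chsy1 had a mean of 1104 ± 59.0 in KI and 1280 ± 74.6 in WT cells (SD, n = 3 each), also without overlap, and a log2 change of -0.21 (adjusted p = 0.072). Csgalnact2 had a mean of 2443 ± 103 in KI and 2704 ± 156 in WT cells (SD, n = 3 each; log2 change -0.15, adjusted p = 0.15). Csgalnact1 and Chsy3 lay between 14.2 and 32.5 on all arrays, near background.

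Chondroitin sulfate is sulfated on its galactosamine residues at the 4 or the 6 position. CHST3 and CHST7 act at the 6 position, CHST11, CHST12 and CHST13 at the 4 position, and CHST14 at the 4 position of dermatan sulfate, the form of chondroitin in which some glucuronic acid has been epimerised to iduronic acid. Of 9 chondroitin and dermatan modifying enzymes measured, 3 rose, 2 fell and 4 did not pass. That was 55.6% past the threshold, against 26.8% of all genes. Of all genes above the median probe set, where 8 of these 9 lay, 40.9% passed.

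Chst7 had intensities of 107, 110 and 109 on the KI arrays, against 501, 489 and 573 on the WT arrays. All KI arrays lay far below all WT arrays, and the KI values hardly differed among themselves. The mean was 109 ± 1.64 in KI and 521 ± 45.3 in WT cells (SD, n = 3 each), a log2 change of -2.26 (SE 0.08, adjusted p = 0.0010). Only 25 of 18193 genes had a lower log2 change.

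Chst11 had intensities of 215.6, 275 and 280 on the KI arrays, against 1105, 1064 and 1104 on the WT arrays. Again the groups lay far apart, with KI 1 the lowest array and the WT arrays close together. The log2 change was -2.10 (SE 0.11, adjusted p = 0.0011), a 4.27-fold difference, with 36 genes lower. A second Chst11 probe set was close to background, at 31.9 ± 6.31 in KI and 39.6 ± 4.89 in WT cells (SD, n = 3 each), with a log2 change of -0.32 (adjusted p = 0.27 over all probe sets).

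The other 4-O-sulfotransferases went the other way or did not pass. Chst14 had intensities of 1506, 1468 and 1433 on the KI arrays, against 857, 911 and 946 on the WT arrays. Each KI array was above each WT array by more than the spread within either group. Its log2 change was 0.70 (SE 0.06, adjusted p = 0.0023). Chst12 had 360, 318 and 341 on the KI arrays, against 214.5, 235 and 243 on the WT arrays, again without overlap. Its log2 change was 0.56 (SE 0.08, adjusted p = 0.0091). Chst13 lay near background, between 51.2 and 58.0 on all 6 arrays, with a log2 change of -0.02 (adjusted p = 0.88).

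Dse encodes the epimerase that turns chondroitin into dermatan sulfate, the substrate of CHST14. Its intensities were 2949, 2992 and 2811 on the KI arrays, against 666, 1493 and 1586 on the WT arrays. The groups did not overlap, but WT 1 was far dimmer than the other WT arrays. The log2 change was 1.32 (SE 0.34, adjusted p = 0.040), and it ranged between 0.92 and 1.55 when 1 array was left out. It no longer passed when WT 2 (adjusted p = 0.061), KI 1 (0.11), KI 2 (0.10) or KI 3 (0.11) was left out, or when p-values were adjusted over all probe sets (0.059).

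The remaining enzymes of this step did not pass. Ust, which sulfates uronic acids at the 2 position, had a mean of 563 ± 57.5 in KI and 452 ± 17.9 in WT cells (SD, n = 3 each), a log2 change of 0.31 (adjusted p = 0.060). With genes below the median left out of the fit, Ust passed (adjusted p = 0.036), as it did without KI 1 (0.031). Chst3 had a log2 change of 0.17 (adjusted p = 0.13) and Chst15, which adds a further sulfate to sulfated galactosamine, one of 0.19 (adjusted p = 0.60).

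**Figure D2:**
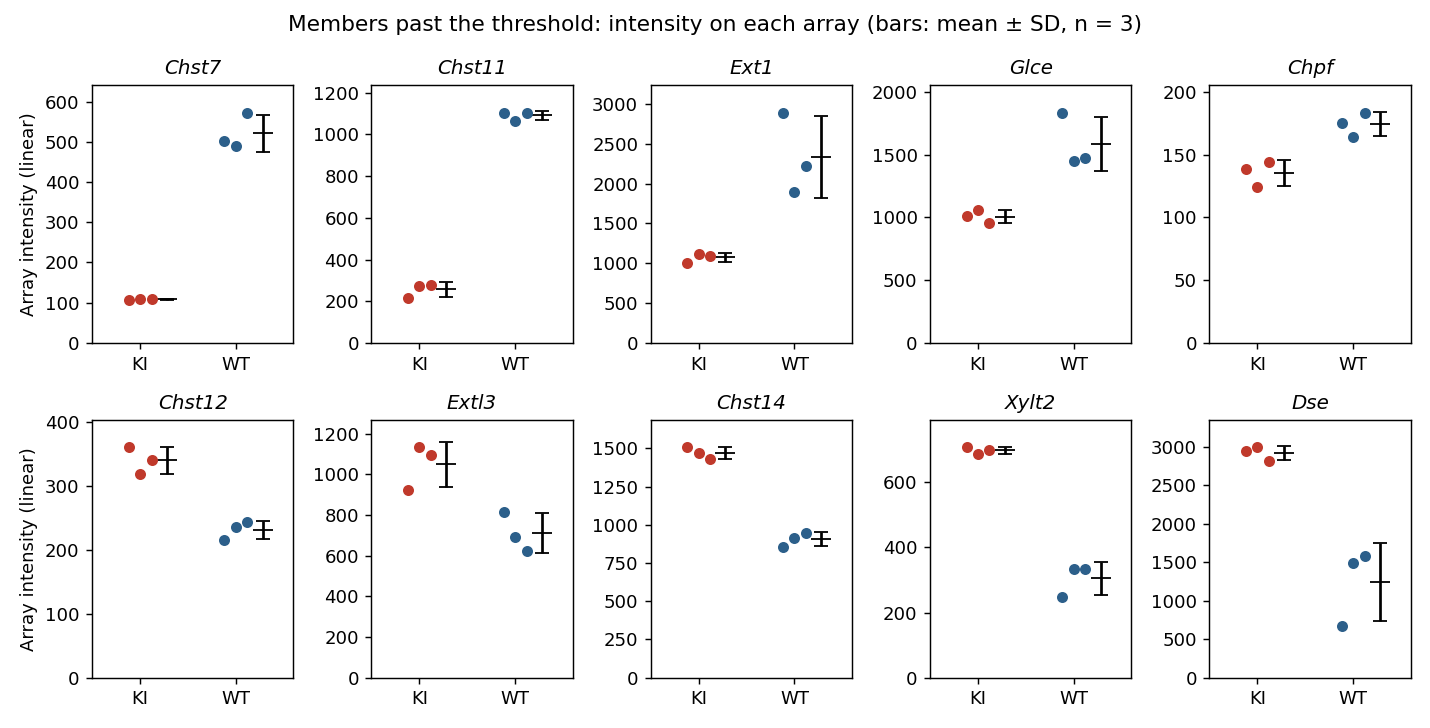
Intensity (linear scale) of the 10 members past the threshold on each array, with KI arrays in red and WT arrays in blue, and the mean ± SD (n = 3) beside the points. The groups are apart in every panel, and WT 1 stands apart from the other WT arrays for Ext1 (2891), Glce (1835), Xylt2 (247) and Dse (666).

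Within an array the log2 ratio of 2 genes does not depend on how that array was scaled, as long as both lie above the floor of 16. The ratio of Chst11 to Chst12 averaged -0.41 ± 0.29 in KI and 2.24 ± 0.11 in WT cells (SD, n = 3 each), so that the balance between these 4-O-sulfotransferase probe sets moved 6.29-fold. The ratio of Chst11 to Chst14 moved 6.94-fold, and that of Chst7 to the other 6-O-sulfotransferase, Chst3, moved 5.37-fold. In each of these ratios every KI array lay below every WT array, which gives p = 0.10 by a two-sided exact permutation test, the smallest p that 3 against 3 arrays allow. Since the probe sets of 2 genes respond differently to RNA, the ratios compare genotypes and not the amounts of the enzymes. The ratio of Ext1 to Ext2 moved 2.16-fold, that of Xylt2 to B3gat3 2.42-fold, that of Glce to Hs2st1 1.37-fold and that of Dse to Ust 2.02-fold, each again with p = 0.10 by the exact permutation test. The ratio of Chpf to Chsy1 overlapped between genotypes (p = 0.20, exact permutation test). All 8 ratios were chosen after the single values were seen, and none can pass an adjustment over 8.

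**Figure D3:**
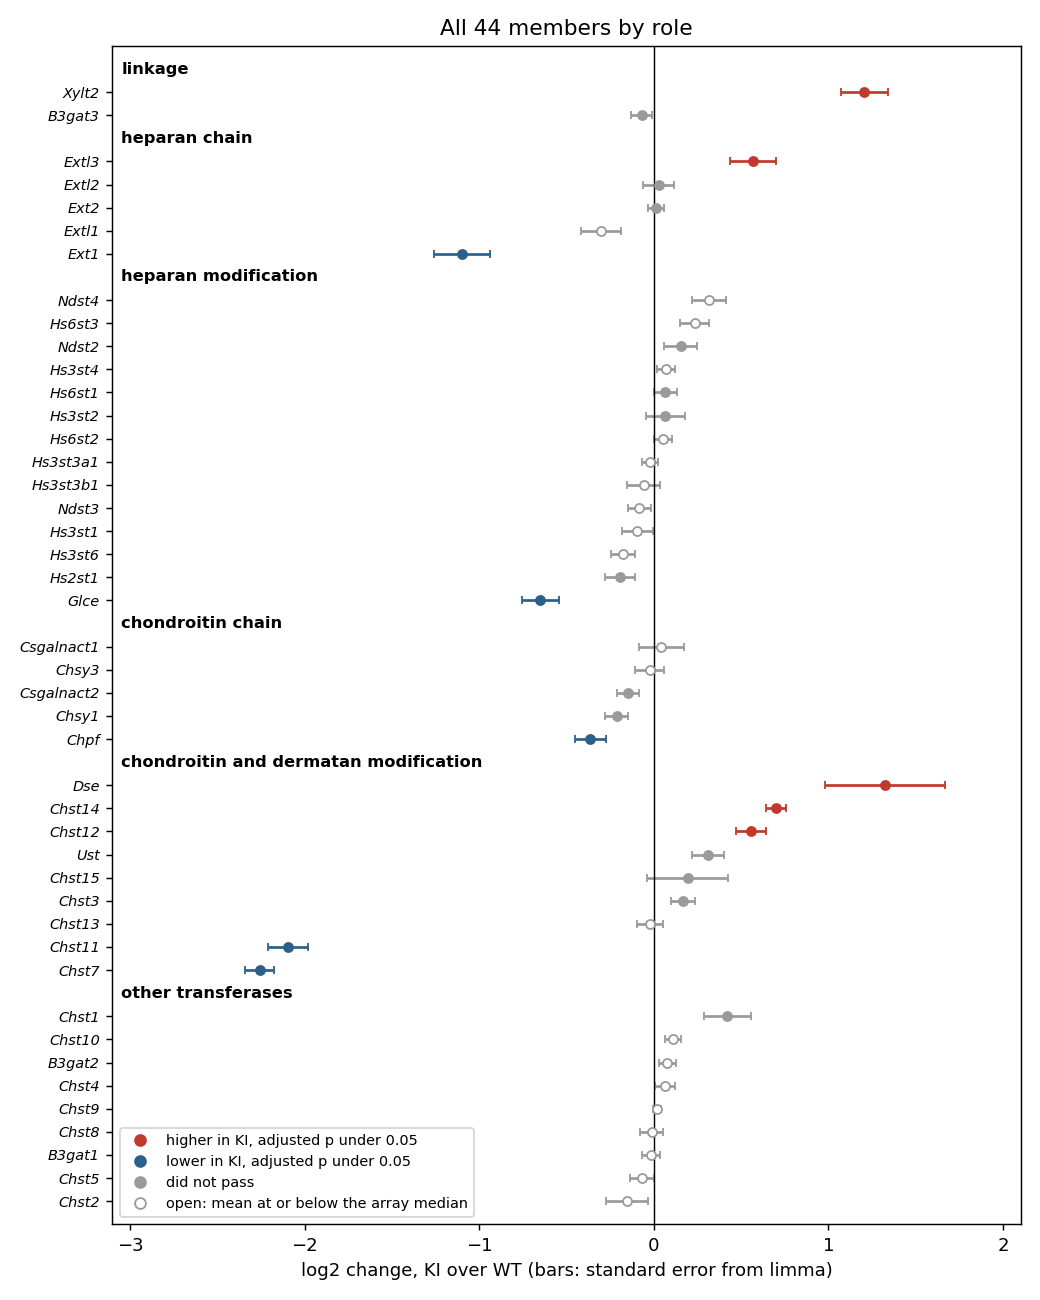
Log2 change (KI over WT) with its standard error for the 44 members, grouped by role, with open symbols for members whose mean lies at or below the array median. Red members (5) rose, blue members (5) fell and grey members (34) did not pass; the widest spread of changes is among the chondroitin and dermatan modifying enzymes, from -2.26 for Chst7 to 1.32 for Dse.

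The last group holds enzymes of the same families that act on other glycans. CHST1 sulfates keratan sulfate, CHST2, CHST4 and CHST5 sulfate glucosamine on other glycans, CHST8 and CHST9 act on galactosamine of N-glycans, and B3GAT1, B3GAT2 and CHST10 make the HNK-1 epitope. By limma 0 of 9 passed, against 26.8% of all genes, and 2 were higher at an unadjusted p under 0.05 (Chst1 and Chst10). Chst1 had intensities of 156, 206 and 157 on the KI arrays, against 118, 132 and 134 on the WT arrays, without overlap. Its log2 change was 0.42 (SE 0.13, adjusted p = 0.073), and it passed with genes below the median left out (adjusted p = 0.035). The other 8 had means at or below the median probe set, with log2 changes from -0.15 for Chst2 to 0.11 for Chst10.

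WT 1 was the WT array farthest from the KI mean for 7 of the 10 members that passed: Chst11, Chst14, Chst12, Dse, Ext1, Glce and Xylt2. Without both arrays numbered 1, 9 of these 10 calls held and that for Chpf ended (adjusted p = 0.12). Over all probe sets, the highest correlation with any other array was 0.9942 for WT 1, and 0.9966 to 0.9982 for the other arrays. Spike-in RNA, added to each sample before hybridisation, read higher on KI arrays (mean log2 of 11.35 to 11.51) than on WT arrays (11.14 to 11.28). Scaling to it put the median log2 change of all genes at -0.21 in place of -0.0013, and scaling to an older probe-set design for the same spike-ins put it at -0.53. Relative to that median each member's change stayed as given above, and the counts against zero followed the shift common to all genes. Under the first scaling 4 members were higher and 10 lower, where 7.35% of all genes were higher and 28.5% lower. Under the second 2 members were higher (Xylt2 and Dse) and 19 lower, where 2.33% of all genes were higher and 47.2% lower.

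**Figure D4:**
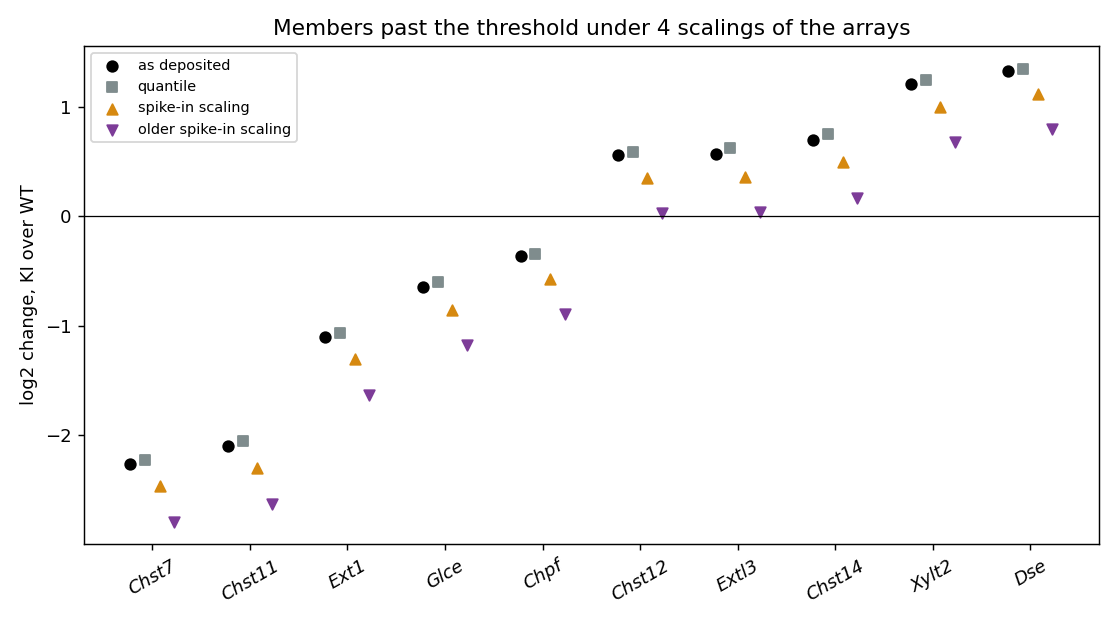
Log2 change (KI over WT) of the 10 members past the threshold with the intensities as deposited, after quantile normalization, and after scaling to newer or older spike-in probe sets. The falls of Chst7 and Chst11 stay beyond -2 in each, while the rises of Chst12, Extl3 and Chst14 shrink to 0.03, 0.04 and 0.17 under the older spike-in scaling.

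Genes that supply these enzymes or act beside them moved in both directions. The first list held 25 measured genes: those for sulfate uptake, the sulfate donor, sugar nucleotides and the linker, with Chpf2 and Dsel. Of the 25, 8 rose, 8 fell and 9 did not pass, with a median log2 change of 0.01. In each direction that was 32% of the list, against 11.9% of all genes higher and 14.9% lower. All of the list but Slc26a1 lay above the median probe set. Of all genes above it 40.9% passed in either direction, against 64% of the list. Papss2, which makes the sulfate donor PAPS, had a mean of 795 ± 67.5 in KI and 407 ± 74.9 in WT cells (SD, n = 3 each) and rose by 0.98 on the log2 scale (adjusted p = 0.011). Slc26a11, a sulfate and anion transporter, rose by 1.66, the sugar nucleotide transporter Slc35d2 by 0.51, Chpf2, a relative of Chpf, by 0.37, Ugdh, which makes UDP-glucuronic acid, by 0.32 and Ugp2, which makes UDP-glucose, by 0.27. Among those lower in KI cells, the linker galactosyltransferase B3galt6 fell by 1.02 and the hexosamine pathway enzymes Gfpt1 and Gnpnat1 by 0.95 and 1.02. Another linker galactosyltransferase, B4galt7, picked out after its value was seen, rose by 0.51 (adjusted p = 0.028 by limma). The probe set of B4galt7 has an identifier that marks possible matches to several transcripts. Bpnt1 and Bpnt2, phosphatases that clear the by-product of sulfation, fell by 0.83 and 0.44, and Slc35a3, a Golgi carrier of UDP-N-acetylglucosamine, by 0.56. The number that rose was 5 without WT 1 or KI 1, 4 without WT 3 or KI 2, 3 without WT 2 and 0 without KI 3. In these fits between 4.88% (without KI 3) and 11% (without WT 1) of all genes were higher, against 11.9% with all arrays.

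Of 33 proteoglycan core protein genes, 2 rose, 4 fell and 27 did not pass (median log2 change 0.02). That was 6.06% higher and 12.1% lower, against 11.9% and 14.9% of all genes. Many of those that did not pass had means at or below the median probe set, where a difference is hard to measure. They were Gpc2 to Gpc6, Acan, Bcan, Ncan, Fmod, Lum, Spock1 to Spock3 and Esm1. Agrn, the heparan sulfate proteoglycan agrin, had a mean of 590 ± 14.7 in KI and 2068 ± 212 in WT cells (SD, n = 3 each) and fell by 1.81 (adjusted p = 0.0010). The glypican Gpc1 fell by 1.52, the small matrix proteoglycan Dcn by 1.44 and the syndecan Sdc1 by 0.99. The Dcn mean of 61.0 ± 3.51 in KI cells lay below the median probe set, against 167 ± 27.2 in WT cells (SD, n = 3 each). Dcn is made mostly by stromal cells, whose markers varied widely within both genotypes, with 0 of 8 past limma's test. The part of stromal cells in the fall of Dcn was not tested. Nrp1, a semaphorin and VEGF co-receptor that can carry such chains, rose by 1.88 (adjusted p = 0.032) and App by 0.29. For Nrp1 the intensities were 7116, 6993 and 8358 on the KI arrays, against 973, 2819 and 3017 on the WT arrays, with WT 1 far dimmer. The number of core genes higher was 0 without WT 2, KI 1 or KI 3, and 1 without WT 3 or KI 2. In these fits between 4.88% (without KI 3) and 9.61% (without WT 3) of all genes were higher.

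The third list holds genes that remodel or degrade the chains, or bind and make hyaluronan. Of 29 measured, 12 rose, 0 fell and 17 did not pass by limma (13 higher and 0 lower at an unadjusted p under 0.05), with a median log2 change of 0.29. Across all genes 11.9% were higher and 14.9% lower, with a median of -0.0013. Values below 0 that did not pass included -0.42 for Hmmr and -0.30 for Arsb, both picked out after their values were seen. Hgsnat, a lysosomal enzyme of heparan breakdown, rose to 14141 ± 874 in KI cells, against 5130 ± 1365 in WT cells (SD, n = 3 each), and Sgsh, another, rose by 0.93 on the log2 scale. Sulf2, which removes 6-O-sulfate from heparan at the cell surface, had a mean of 4107 ± 844 in KI and 1760 ± 239 in WT cells (SD, n = 3 each) and rose by 1.21 (adjusted p = 0.0083). Its probe set has an identifier that marks possible matches to several transcripts, as has that of Stab1. Stab1, a scavenger receptor of macrophages, rose by 1.91, Sumf1, which activates sulfatases, by 0.43 and the glucuronidase Gusb by 0.29. Hpse, the heparanase, was singled out after its values were seen. It had 6788, 3689 and 4860 on the KI arrays, against 895, 2964 and 3198 on the WT arrays, and did not pass (log2 change 1.28, adjusted p = 0.15). The spike-in scalings moved all genes alike: 7 of the 29 were then higher and 1 lower under the newer one, where 7.35% of all genes were higher and 28.5% lower. Under the older one 5 were higher and 7 lower, where 2.33% of all genes were higher and 47.2% lower. Without KI 3, 5 rose and 0 fell, where 4.88% of all genes were higher and 6.13% lower. With genes below the median left out of the fit, 13 rose and 0 fell. Of all genes kept in that fit, 21.3% were higher and 27.7% lower.

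**Figure D5:**
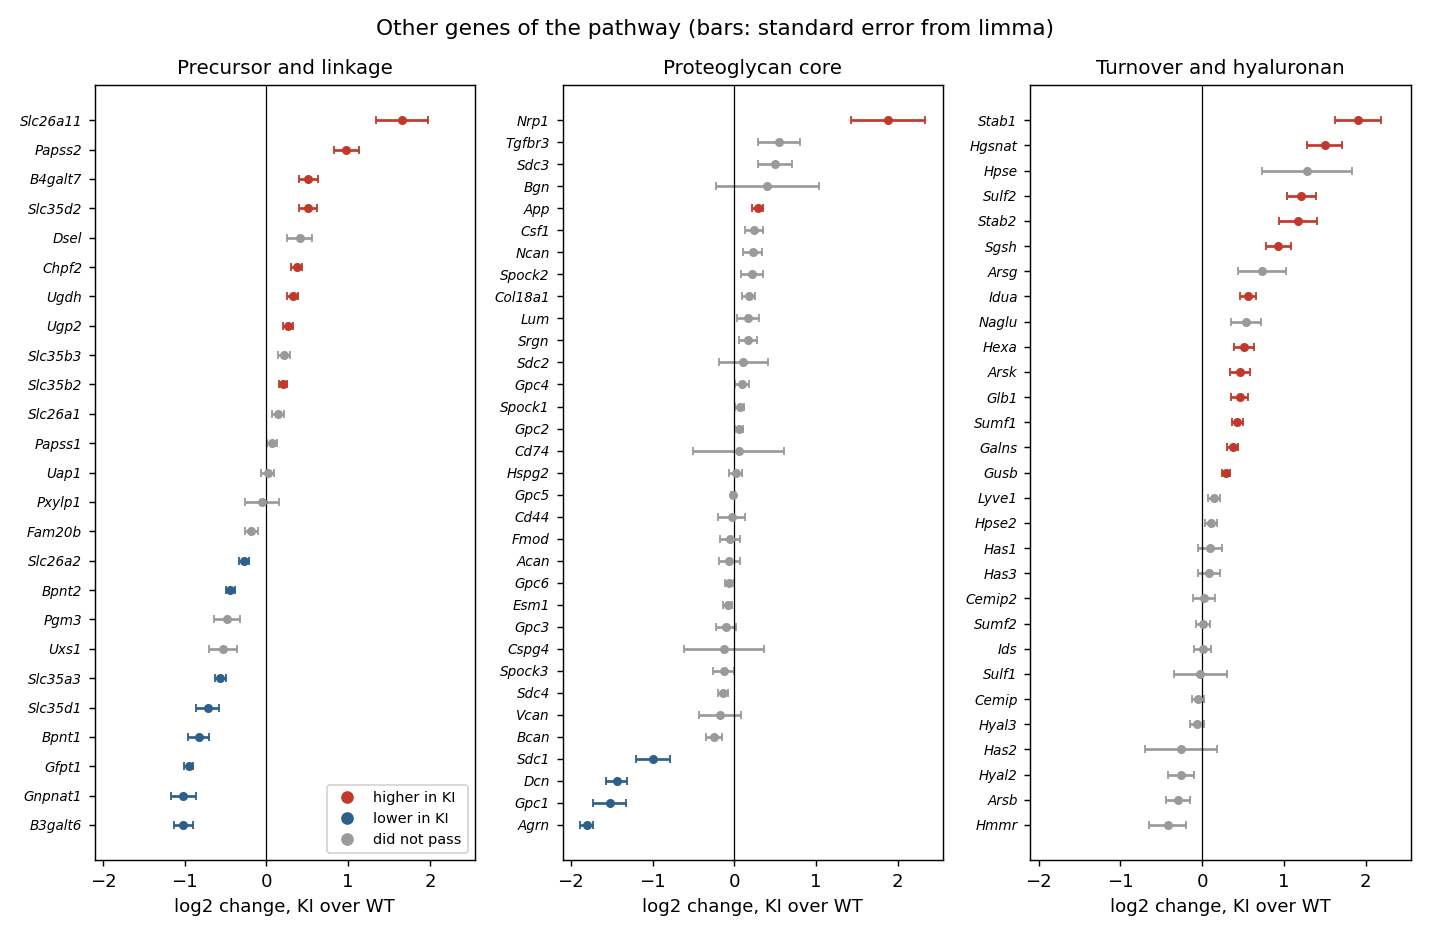
Log2 change (KI over WT) with its standard error for the other genes of the pathway, 25 of precursor supply and linkage (with Chpf2 and Dsel), 33 core proteins and 29 of turnover and hyaluronan. Red genes rose and blue genes fell at an adjusted p under 0.05; the precursor list splits 8 and 8, the core list 2 and 4, and the turnover list 12 and 0.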

How the data were processed

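RNA from 3 KI and 3 WT samples was biotin-labelled and hybridised to Affymetrix 430 2.0 arrays (labels' protocols). In the table as deposited there is 1 linear intensity per probe set and array, made by the authors in Affymetrix Expression Console, per the submitters' processing notes. For both the summary method and the normalization, nothing is stated in the labels or headers. Array medians lay between 83.0 and 84.8, and the number of arrays limits the precision.

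Intensities under 16 (5.47% of values) were set to 16 and taken to log2. Of 45101 probe sets, 64 were controls, 34945 had 1 gene symbol in the platform annotation, 932 several and 9160 none, and 34741 of the single ones matched RefSeq. The brightest single-symbol probe set stood for each of 18193 genes. KI was compared with WT by limma 3.58.1 in R 4.3.3 (lmFit, eBayes with an intensity trend), with Benjamini-Hochberg adjustment over all genes and a threshold of 0.05. SEs are limma's. A second fit covered all probe sets. The code was tested on simulated data.

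Every member is named, with array values for those past the threshold or at least 2-fold apart. Changes are given for up to 6 genes per direction with the smallest p from each pathway list. Those given beyond these were picked out after their values were seen. Members and lists were chosen with earlier results of these data known. The alternatives were other scalings, filters, low-value treatments and readings of probe sets, no intensity trend, a replicate block, the description number as a covariate, and arrays left out.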

Additional observations from a re-analysis of the deposited data

How the results depend on the processing

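Each member past the threshold kept its direction in every alternative that was run. Chst7 and Chst11 passed in 18 of 18 alternatives, Ext1 and Chst14 in 16 of 18, Xylt2 in 16 of 17, Chst12 in 15, Glce in 14, Dse in 11, Extl3 in 9 and Chpf in 8 of 17. The spike-in scalings shift all genes alike, to medians of -0.21 (newer) and -0.53 (older). With the newer one 7.35% of all genes were higher and 28.5% lower. Then 4 members were higher and 10 lower, and 2 precursor genes were higher and 11 lower. Under it 1 core gene was higher and 7 lower, and 7 turnover genes were higher and 1 lower. With the older one 2.33% of all genes were higher and 47.2% lower. Then 2 members were higher and 19 lower, and 1 precursor gene was higher and 11 lower. Under it 1 core gene was higher and 15 lower, and 5 turnover genes were higher and 7 lower. By that common shift Chst9, which lies at the floor, came to -0.51 (adjusted p = 0.047) in place of 0.02. The shift ended the calls of Chst12 (0.03, adjusted p = 0.93), Extl3 (0.04, adjusted p = 0.90) and Chst14 (0.17, adjusted p = 0.57). Leaving out probe sets with possible matches to several transcripts, 1 core gene was higher, and 10 turnover genes were higher and 0 lower. In that fit 11.1% of all genes were higher and 13.5% lower.

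Deviations from the genotype mean were correlated at -0.42, -0.32 and -0.31 for same-numbered arrays. For differently numbered arrays the correlations lay between -0.28 and 0.41. Since the deviations within a genotype cancel out, these correlations depend on one another and cannot decide whether the replicate numbers pair the samples. With the replicate block 0 members were higher and 2 lower (Chst7 and Chst11), 0 precursor genes higher and 1 lower, 0 core genes higher and 0 turnover genes higher, by limma with fewer residual degrees of freedom, where 0.803% of all genes were higher and 1.09% lower. With each sample's description number as a covariate, 2 members were higher and 2 lower, 0 precursor genes higher and 3 lower, 0 core genes higher and 2 turnover genes higher, where 3.89% of all genes were higher and 5.30% lower. The cause of these losses was not tested.

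With 1 array left out, 3 to 6 members were higher and 3 to 5 lower, and 887 to 1999 of all genes were higher and 1115 to 2381 lower. Between 0 and 5 precursor genes were higher and 6 to 8 lower, 0 to 3 core genes higher and 3 to 4 lower, and 5 to 11 turnover genes higher and 0 lower. Only 3 members were higher without WT 2, KI 2 or KI 3, and 3 lower without KI 3. Signal over background limits the 21 members at or below the median probe set.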
